A study of Danio rerio with 12 samples.

Results

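A set of 10 transcription factor genes of the early zebrafish ectoderm and of the border between neural plate and epidermis was followed: *tfap2a*, *tfap2c*, *foxi1*, *gata3*, *dlx3b*, *dlx4b*, *dlx5a*, *msxb*, *msxe* and *foxd3*. They were taken from the array by their gene symbols in the array's annotation, which gave 23 of its 45220 features, and all 23 are described. *tfap2c* had 5 probes, *tfap2a* 3, *gata3* 1 and each other gene 2. Probes of a gene are numbered from the highest to the lowest mean signal over the 12 arrays. The current symbols of *msxb* and *msxe* are *msx1b* and *msx1a*.

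The ectoderm of a fish gastrula is divided by a gradient of BMP signaling, high on the ventral side where epidermis forms and low on the dorsal side where the neural plate forms. Cells between the fields make up the neural plate border, from which neural crest and the sensory placodes arise. AP-2, Foxi, Gata, Dlx and Msx factors are known to act in ventral ectoderm and at this border before crest genes such as *foxd3* mark the crest itself.

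The samples were whole embryos of the AB strain. At the one-cell stage they had been injected with 0.5 pmol *tbx16* MO and 0.25 pmol *ta* MO together (double morphants) or with 0.75 pmol standard control MO. A morpholino (MO) is a short antisense oligomer that blocks the translation or splicing of an RNA. Ta and Tbx16 are T-box factors of the mesoderm. Embryos were collected at shield (6 hpf), when the organizer forms, and at 90% epiboly (9 hpf), late in gastrulation, with 3 samples of about 200 embryos for each of the 4 groups and 1 array per sample.

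The values were log2 intensities, already normalized between arrays, and array medians lay between 7.06 and 7.07. Within groups, arrays correlated at 0.966 to 0.990 over all features. Whether the 3 samples of a group were separate clutches is not stated, so p-values measure the spread between these samples, which may be technical, and 3 arrays per group limit the precision. In whole embryos, fewer cells of a type and less RNA per cell cannot be told apart. The signal of *ntla* (*ta*) was higher in double morphants, by 1.19 on the log2 scale at shield (adjusted p = 0.0165 by limma) and 1.81 at 90% epiboly (adjusted p = 0.000248), and that of *tbx16* did not pass (0.54 and 0.37, adjusted p = 0.443 and 0.995), so transcript levels do not check these knockdowns. The *ntla* call at shield was lost, among others, without the first control or the third double morphant of that stage (adjusted p up to 0.0854 from limma). On the arrays of that stage alone it was lost too (adjusted p = 0.181 from limma). Of 12 paraxial mesoderm genes, 8 fell at each stage (median log2 difference -1.41 and -1.92), against 0.263% and 0.572% of all 13286 genes called lower, and *msgn1*, a regulator of presomitic mesoderm, fell by 4.40 and 5.58.

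More of these features passed the test between stages than between treatments, as did more of all features. In control MO embryos, 7 of the 23 features passed the test between 90% epiboly and shield, against 12.8% of all features: 6 rose (5.73% of all features), both probes of *dlx3b*, *msxb* and *msxe*, and 1 probe of *foxd3* fell (7.04% of all). In double morphants 8 of the 23 passed, against 13.1% of all features, of which 6 rose (6.28% of all; *dlx3b*, *dlx4b* and *tfap2a*) and 2 fell (6.79% of all; *foxd3* and *dlx5a*). Between double morphants and controls, 1 of the 23 features passed at shield (*dlx5a*, higher), against 0.484% of all features called and 0.206% called higher, and 0 of the 23 at 90% epiboly, against 0.705%. The test in each case was limma over all features with Benjamini-Hochberg adjustment and a threshold of 0.05. These comparisons share samples with one another, so their values are given side by side and are not independent.

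**Figure D1:**
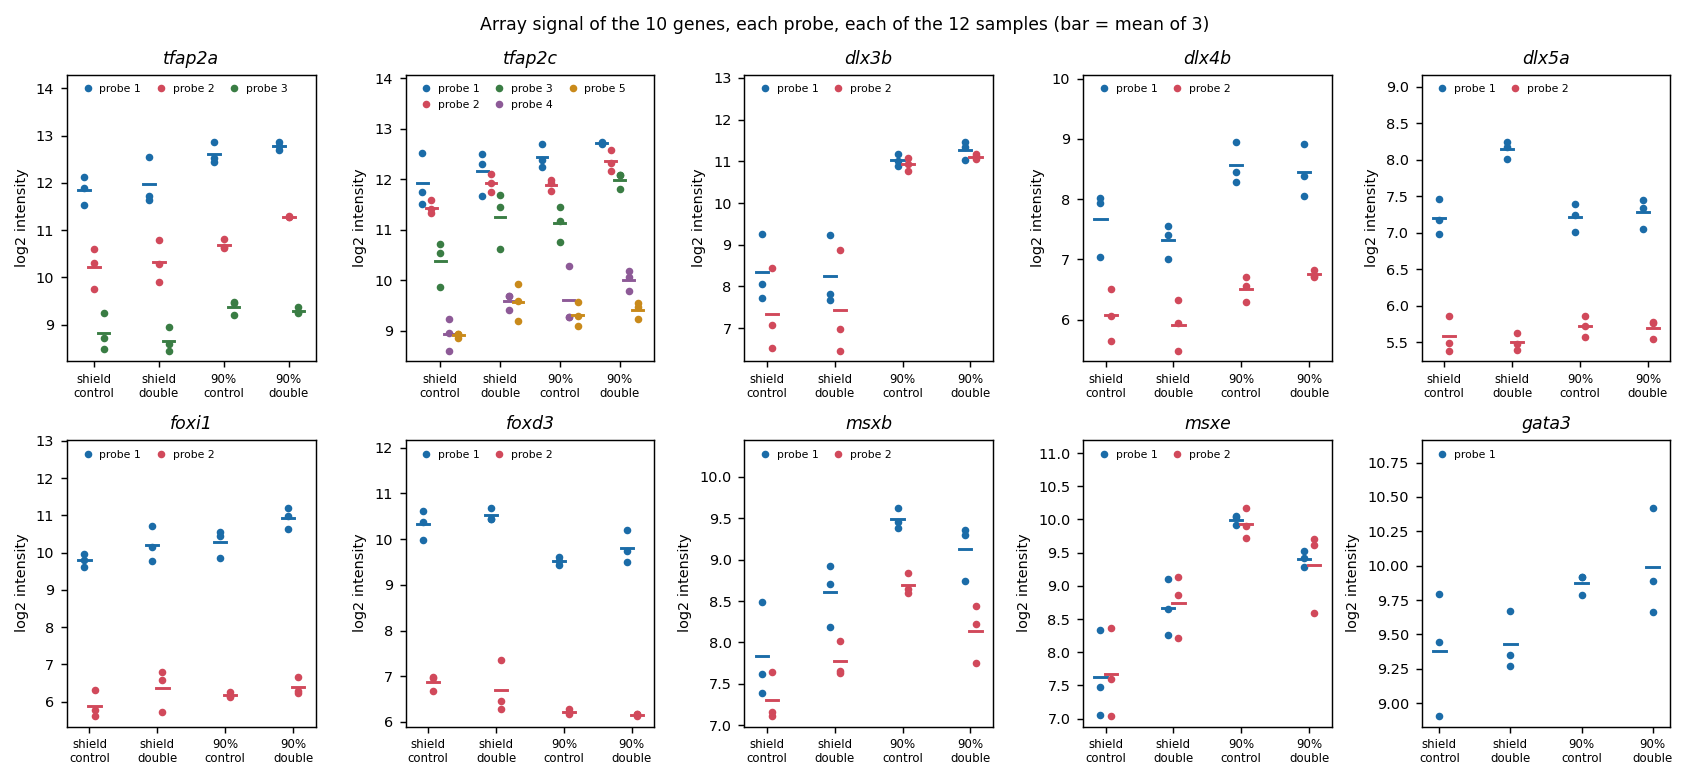
Log2 intensity (y axes, each panel with its own range) of every probe of the 10 genes in each of the 12 samples, by group (x axes), with points for samples and bars for means of 3. *dlx3b* lies higher at 90% epiboly than at shield in both treatments, and *msxb* and *msxe* do so in control MO embryos. In double morphants the stages overlap for both *msxb* probes and *msxe* probe 2. *dlx5a* probe 1 is highest in the shield double morphants, where its mean was 8.14.

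**Figure D2:**
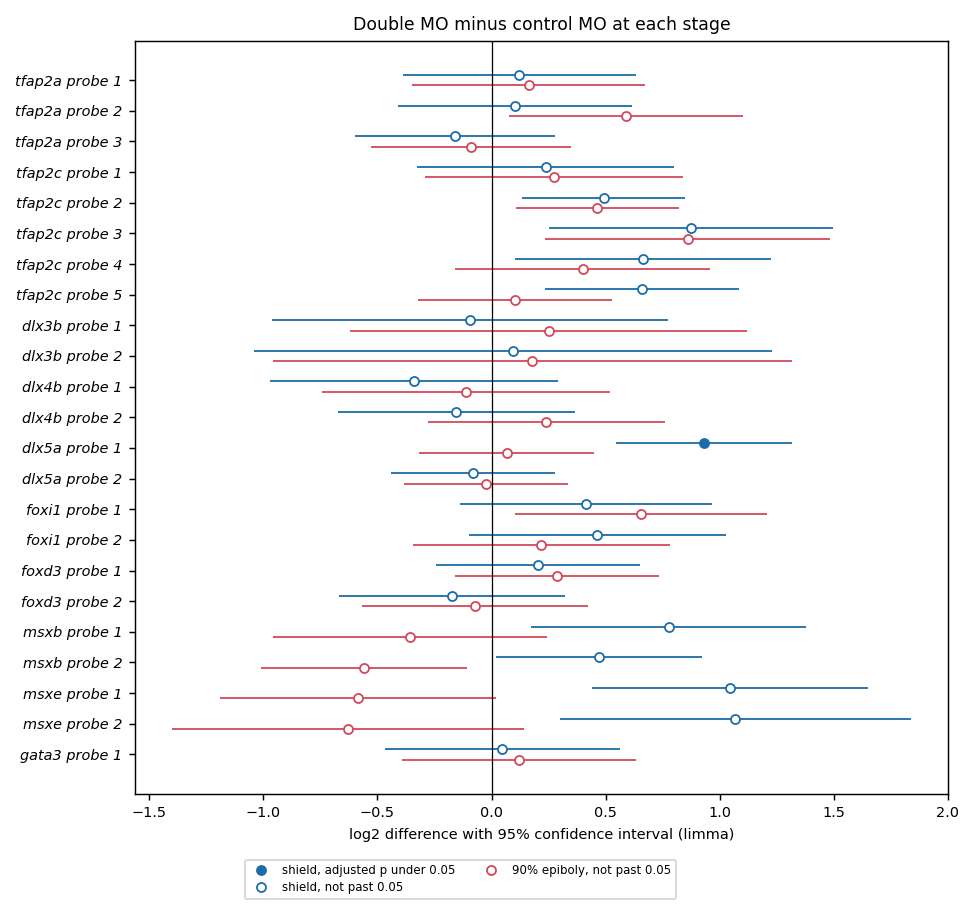
Log2 difference of double morphants minus control MO embryos (x axis) for the 23 probes (y axis) at shield and at 90% epiboly, with 95% confidence intervals from limma and filled points where the adjusted p was under 0.05. The only filled point is *dlx5a* probe 1 at shield, at 0.93, and the 4 *msxb* and *msxe* probes lie to the right of 0 at shield and to its left at 90% epiboly.

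At shield, 17 of the 23 features had a positive difference, against 50.5% of all features, and the median difference was 0.24 (0.00 over all features). An unadjusted p under 0.05 was found for 9 of the 23 features, against 8.96% of all, and these were 4 of the 5 probes of *tfap2c*, 1 of *dlx5a* and both of *msxb* and *msxe*. All 9 were higher in double morphants. Groups did not overlap, with double morphants higher, for 4 features (*tfap2c* probes 2, 4 and 5 and *dlx5a* probe 1), against 5.60% of all features, and for 0 features with double morphants lower, against 6.02%. Probes of a gene read the same RNA, so these features are not independent of one another.

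At shield, samples that carry the same number tended to lie above or below their group means together (correlations 0.34, 0.35 and 0.30 over all features). Values with the replicate number as a block are therefore given beside those without. With the block, 4 of the 23 features passed at shield in place of 1, and the share of all features called was 0.736% in place of 0.484%. The 4 were *dlx5a* probe 1, *tfap2c* probe 3 and both probes of *msxe*. The pairing was judged from the data, since the sources do not say what a number stands for.

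At 90% epiboly, 15 of the 23 features had a positive difference, against 50.9% of all, with a median of 0.16 (0.00 over all features). An unadjusted p under 0.05 was found for 5 features, against 5.65% of all: *tfap2a* probe 2, *tfap2c* probes 2 and 3, *foxi1* probe 1 and *msxb* probe 2. Groups did not overlap for 6 features that were higher in double morphants (7.09% of all features) and for 4 that were lower (7.02%), and the 4 lower ones were the probes of *msxb* and *msxe*.

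The *msx* genes encode homeodomain repressors that respond to BMP signaling at the edge of the neural plate. Both had higher means in double morphants than in controls at shield and lower means at 90% epiboly. *msxe* probe 1 read 8.33, 7.06 and 7.48 in the shield controls and 9.10, 8.26 and 8.64 in the shield double morphants. The groups overlapped, because the first control lay above the second double morphant, but each double morphant lay above the control of its number, by 0.77, 1.21 and 1.16. The log2 difference of 1.04 (standard error 0.28, 2.06-fold) did not pass without the block (adjusted p = 0.191 from limma) and passed with it (standard error 0.15, adjusted p = 0.0135).

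*msxe* probe 2 read 8.37, 7.04 and 7.60 in shield controls and 9.13, 8.21 and 8.87 in shield double morphants, which differed by 1.07 with a standard error of 0.36 (adjusted p = 0.351 from limma, and 0.0466 with the block). With the block kept at shield alone, an alternative chosen after seeing the data, probe 1 passed (adjusted p = 0.00545 from limma) and probe 2 did not (0.108). Without the first shield control and with no block, probe 1 passed as well (difference 1.40, adjusted p = 0.0156). At shield, probe 1 passed in 3 of 22 alternatives with an adjusted p-value, all given above, and probe 2 in 1 of 22. *msxb* probe 1 read 8.49, 7.39 and 7.61 in shield controls and 8.70, 8.19 and 8.93 in shield double morphants. Its difference of 0.78 (standard error 0.28) and that of probe 2, 0.47 (standard error 0.21), did not pass (adjusted p = 0.402 and 0.536 from limma, and 0.185 and 0.219 with the block).

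At 90% epiboly *msxe* probe 1 read 9.91, 10.05 and 10.03 in controls and 9.28, 9.53 and 9.43 in double morphants. All 3 double morphants lay below all 3 controls, yet the difference of -0.59 (standard error 0.28) did not pass (adjusted p = 0.911 from limma). Probe 2 read 9.73, 9.90 and 10.18 in controls and 8.59, 9.71 and 9.62 in double morphants, with the first double morphant more than 1 log2 unit below the others. Its difference was -0.63 (standard error 0.36), that of *msxb* probe 1 was -0.36 (standard error 0.28), and neither passed. *msxb* probe 2 read 8.65, 8.84 and 8.60 in controls and 7.75, 8.44 and 8.22 in double morphants, a difference of -0.56 (standard error 0.21, adjusted p = 0.630 from limma), again with the first double morphant lowest.

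The test of whether the MO difference itself changed between stages (the interaction, 90% epiboly minus shield) passed for 0 of the 23 features, against 0.287% of all. An unadjusted p under 0.05 was found for 5 of them, against 3.77% of all: both probes of *msxb* and *msxe* and *dlx5a* probe 1, all 5 negative. The interaction was -1.63 (standard error 0.40) for *msxe* probe 1, -1.70 (standard error 0.51) for its probe 2, and -1.13 and -1.03 for the probes of *msxb*, with adjusted p = 0.274, 0.732, 1.00 and 0.629 from limma. With the replicate block at both stages, where 0.294% of all features were called, *msxe* passed (adjusted p = 0.00814 and 0.0471). With the block at shield alone probe 1 passed (0.00288) and probe 2 did not (0.177). With array weights probe 1 passed (0.0338), and without the first shield control and with no block probe 1 also passed (-1.99, adjusted p = 0.00986). The interaction of both *msxe* probes was negative under every alternative run, from -2.05 to -1.34, while its call differed between them. It passed in 4 of 20 alternatives for probe 1, all given above, and in 1 of 20 for probe 2.

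The same pattern can be read along time. In control MO embryos *msxe* probe 1 rose by 2.37 from shield to 90% epiboly (standard error 0.28, 5.18-fold, adjusted p = 0.000199 from limma) and probe 2 by 2.27 (adjusted p = 0.00121), and *msxb* rose by 1.66 and 1.40 (adjusted p = 0.0018 and 0.000869). In double morphants the corresponding differences were 0.74 and 0.57 for *msxe* and 0.53 and 0.37 for *msxb*, none of which passed (adjusted p = 0.103, 0.338, 0.249 and 0.286). That the rise differed between treatments is the interaction given above. In the main fit, which has no block, it did not pass for any of the 4 probes, and its call differed between alternatives for *msxe*.

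**Figure D3:**
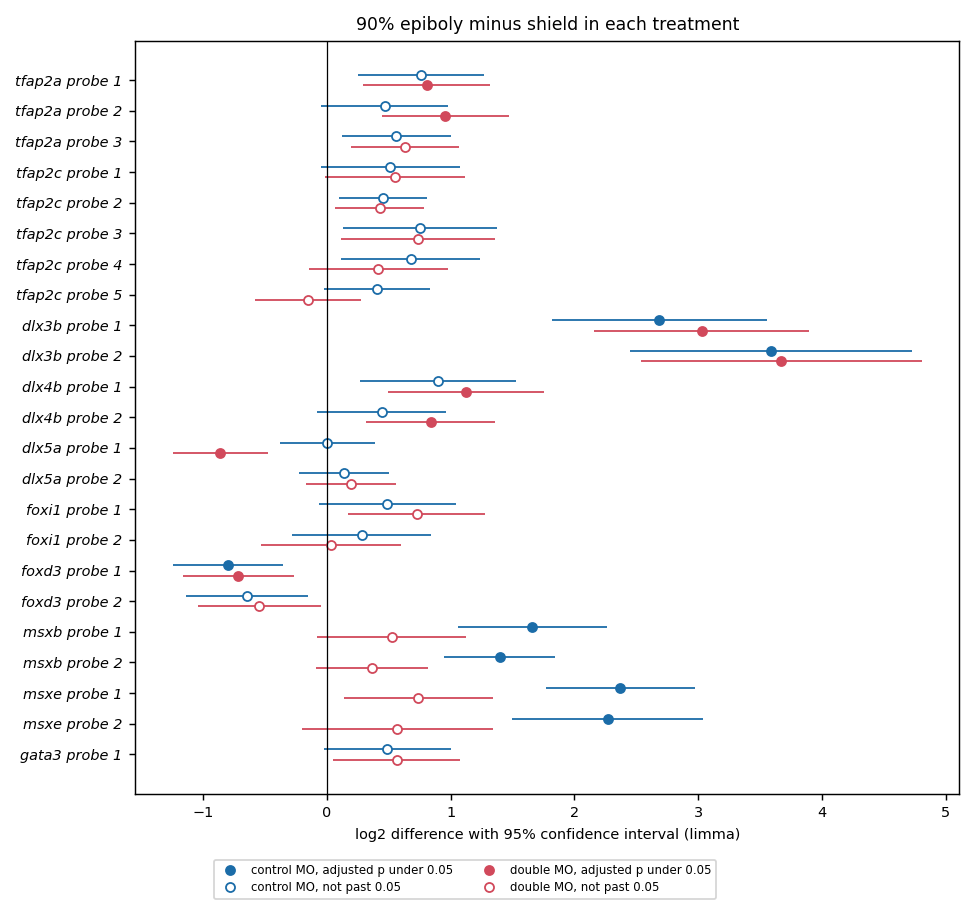
Log2 difference of 90% epiboly minus shield (x axis) for the 23 probes (y axis) for the control MO and the double morphant embryos, with 95% confidence intervals from limma and filled points where the adjusted p was under 0.05. The *dlx3b* intervals of both treatments lie to the right of 1, while *msxb* and *msxe* are filled in control MO embryos alone.

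*msxc*, another member of the Msx family, was the only one of 19 measured relatives of the 10 genes to pass at shield, against 0.286% of all genes called higher. Its probe 1 read 8.59, 7.96 and 7.57 in shield controls and 9.52, 9.13 and 9.25 in shield double morphants, with no overlap. It rose by 1.26 in double morphants (adjusted p = 0.0347 from limma), and probe 2 rose by 1.13 (adjusted p = 0.031). Both calls were lost, among others, when the second or the third shield control or any shield double morphant was left out, with adjusted p up to 0.134. At 90% epiboly the differences of *msxc* were 0.09 and -0.12 (adjusted p = 1.00 for both probes). With stage, *msxc* rose by 1.71 and 1.51 in control MO embryos (adjusted p = 0.000561 and 0.000544 from limma). In double morphants it differed by 0.54 and 0.27, which did not pass in the main fit (0.163 and 0.459). Its interactions of -1.17 and -1.24 did not pass (0.641 and 0.245). *msxd* rose with stage in both treatments, by 1.67 in controls and 1.77 in double morphants (adjusted p = 0.00047 and 0.00035). The MO differences of *msxd* were 0.18 at shield and 0.28 at 90% epiboly, and neither passed (adjusted p = 0.872 and 1.00). The 4 probes of *msxa* lay between -0.23 and 0.30 at shield and between 0.16 and 0.32 at 90% epiboly, and none passed.

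**Figure D4:**
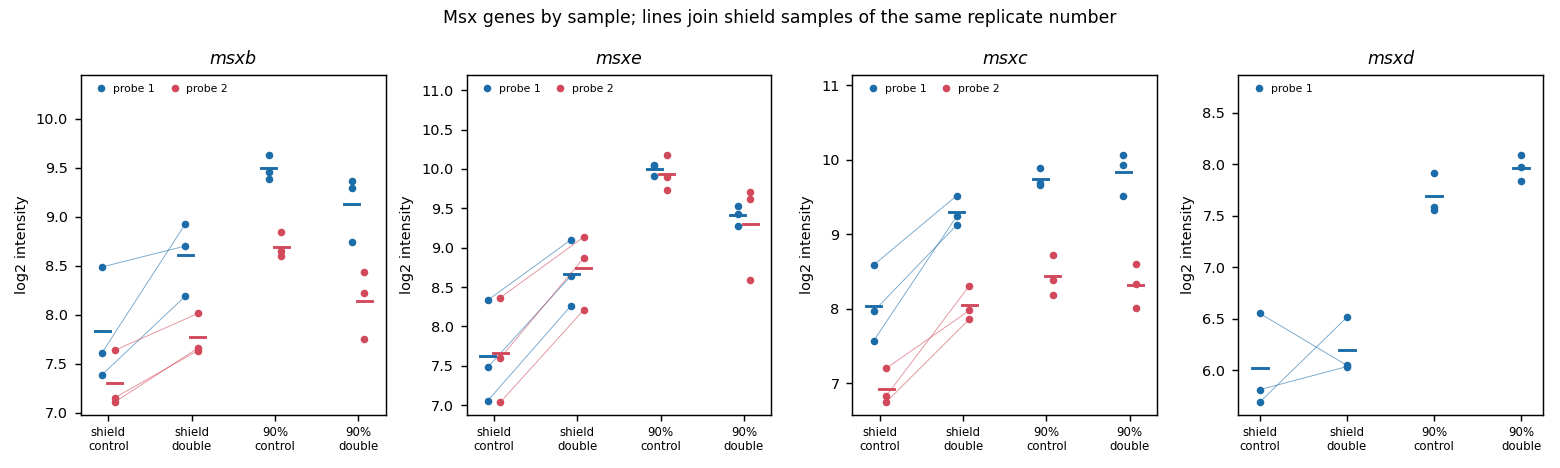
Log2 intensity (y axes, each panel with its own range) of *msxb*, *msxe*, *msxc* and *msxd* in each sample by group (x axes), with bars for means of 3 and lines joining shield samples of the same replicate number. For *msxb*, *msxe* and *msxc* every line rises from control to double morphant, and for *msxd* 1 of the 3 lines falls.

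The Dlx genes encode homeodomain activators of the border and of the placodes. *dlx5a* probe 1 read 6.99, 7.17 and 7.47 in the shield controls and 8.24, 8.17 and 8.01 in the shield double morphants, with no overlap. It rose by 0.93 (standard error 0.18, 1.91-fold, adjusted p = 0.037 from limma, and 0.0406 with the block). At 90% epiboly it read 7.24, 7.39 and 7.01 in controls and 7.45, 7.34 and 7.05 in double morphants, and the groups overlapped (difference 0.07, adjusted p = 1.00). In control MO embryos it stood at 7.21 at shield and 7.22 at 90% epiboly, and in double morphants it fell by 0.86 between these stages (standard error 0.18, adjusted p = 0.00714 from limma), which rests on the same shield double morphants as its rise. The interaction of -0.87 did not pass (adjusted p = 0.661).

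The call on *dlx5a* at shield was close to the threshold. It was lost when 8 of the 12 arrays were left out in turn (each shield double morphant, the first or second shield control, the first or second 90% epiboly control and the second 90% epiboly double morphant), with adjusted p between 0.0562 and 0.118, while the difference stayed between 0.82 and 1.06. Probe 2 of *dlx5a* did not show it: it read 5.86, 5.50 and 5.39 in shield controls and 5.62, 5.39 and 5.48 in shield double morphants, a difference of -0.08 (adjusted p = 0.928). At 90% epiboly its difference was -0.03, and with stage it differed by 0.14 in controls and 0.20 in double morphants, none passing. That probe lay among the dimmest 40% of features, under 6.56, as did probe 2 of *dlx4b*, *foxi1* and *foxd3*, and how far such signals lie above background is unknown. *dlx6a*, the gene next to *dlx5a* in the GRCz12tu assembly, was at 0.19 at shield and -0.26 at 90% epiboly, and neither passed (adjusted p = 0.867 and 1.00). Its group means of 5.64 to 6.08 lay under the same dim level.

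Over the 12 arrays, the genes with the profile most like *dlx5a* probe 1 were *lipt2*, *si:dkey-266f7.4* and *ccn4a*, by Pearson correlations of 0.96, 0.95 and 0.94 among 13276 genes searched. Like *dlx5a* probe 1, each of them was highest in the 3 shield double morphants. They were chosen by their correlation over these same arrays, so this shared peak, and with it a higher shield mean, follows from the choice. *ccn4a* rose by 1.58 in double morphants at shield (adjusted p = 0.000279 from limma), and *lipt2* probe 1 and *si:dkey-266f7.4* were at 0.84 and 0.75 (adjusted p = 0.0552 and 0.139). Probe 2 of *lipt2* did not share the peak and was at 0.32 at shield (adjusted p = 0.686 from limma). Its highest value, 6.36, was in the first 90% epiboly double morphant. Outside the shield double morphants, *lipt2* probe 1 and *ccn4a* lay under the dim level given above (up to 6.25 and 5.89). The values of *si:dkey-266f7.4* lay above that level in all groups.

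*dlx3b* and *dlx4b* are neighbouring genes in the GRCz12tu assembly that are needed for otic and olfactory placodes in zebrafish. *dlx3b* had the largest change with stage of the 10 genes. Probe 1 read 9.25, 8.06 and 7.73 in shield controls and 11.00, 10.90 and 11.18 in 90% epiboly controls, with no overlap. It rose by 2.68 in control MO embryos (6.43-fold, adjusted p = 0.000873 from limma) and by 3.03 in double morphants (8.16-fold, adjusted p = 0.000438), and probe 2 rose by 3.59 and 3.67 (adjusted p = 0.00077 and 0.000722).

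At shield the first sample of each treatment stood above the others for *dlx3b*: probe 2 read 8.43, 6.52 and 7.09 in controls and 8.88, 6.46 and 6.99 in double morphants. The MO differences of its probes were -0.09 and 0.10 at shield and 0.25 and 0.18 at 90% epiboly, and none passed (adjusted p from 0.965 to 1.00). The 95% interval for probe 1 ran from -0.96 to 0.77 at shield and from -0.62 to 1.12 at 90% epiboly, in the fit without a block. With the block at both stages the shield interval for probe 1 was narrower, from -0.42 to 0.23, and that for probe 2 ran from -0.26 to 0.45.

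*dlx4b* probe 1 was at 7.66 ± 0.55 in shield controls and 8.56 ± 0.34 in 90% epiboly controls (SD, n = 3 each). Its stage difference was 0.90 in control MO embryos (adjusted p = 0.0621 from limma) and it rose by 1.12 in double morphants (adjusted p = 0.0234), as did probe 2 by 0.84 (adjusted p = 0.0364). Leaving out single double morphant samples took these calls away, with adjusted p up to 0.11 for probe 1 (without the first or the third of either stage) and 0.15 for probe 2 (without any but the first of shield). With its probes averaged, *dlx4b* passed in control MO embryos (0.67, adjusted p = 0.0223 from limma) and in double morphants (0.98, adjusted p = 0.00294). Probe 1 passed in control MO embryos in 2 of 21 alternatives, with the block (0.0322) and with dim features removed (0.0453). The interaction of its probes was 0.23 and 0.39, and neither passed. The MO differences of *dlx4b* lay between -0.34 and 0.24, and none passed.

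AP-2 factors are among the earliest regulators of non-neural ectoderm, and *tfap2a* and *tfap2c* act together there and in crest induction in zebrafish. *tfap2c* probe 3 read 10.72, 10.54 and 9.87 in shield controls and 11.69, 11.45 and 10.61 in shield double morphants. The groups overlapped, but each double morphant lay above the control of its number, by 0.97, 0.91 and 0.74. The difference of 0.87 (standard error 0.29) did not pass without the block (adjusted p = 0.346 from limma), passed with it (standard error 0.15, adjusted p = 0.0314) and did not with the block at shield alone (0.0551).

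At 90% epiboly the same probe read 10.76, 11.45 and 11.17 in controls and 11.80, 12.08 and 12.09 in double morphants, a difference of 0.86 (standard error 0.29, adjusted p = 0.470 from limma) with no overlap. All 5 probes of *tfap2c* had positive differences at both stages, from 0.24 to 0.87 at shield and from 0.10 to 0.86 at 90% epiboly. None of them passed in the main fit. With array weights and no block, probe 2 passed at 90% epiboly (0.51, adjusted p = 0.0453 from limma), where 2.5% of all features were called. Probe 5 read 8.93, 8.86 and 8.94 in shield controls and 9.93, 9.19 and 9.60 in shield double morphants (difference 0.66, adjusted p = 0.270). With stage, the *tfap2c* probes differed by 0.41 to 0.75 in control MO embryos and by -0.15 to 0.74 in double morphants, and none passed in the main fit. With array weights, probes 1 and 3 passed in control MO embryos (adjusted p = 0.0191 and 0.011 from limma) and probe 2 in double morphants (0.046). With its probes averaged, *tfap2c* passed in control MO embryos (0.56, adjusted p = 0.0435) and not in double morphants (0.40, adjusted p = 0.144).

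*tfap2a* probe 1 read 12.13, 11.52 and 11.89 in shield controls and 12.85, 12.53 and 12.45 in 90% epiboly controls. The stage difference was 0.76 in control MO embryos (adjusted p = 0.0507 from limma). It passed in 8 of 21 alternatives with an adjusted p-value, among them the block (0.0236 from limma). Probes 2 and 3 were at 0.47 and 0.56 in control MO embryos and did not pass in the main fit (adjusted p = 0.239 and 0.0923). The interaction of probe 1 was 0.04 and did not pass. In double morphants probe 1 rose by 0.81 and probe 2 by 0.96 (adjusted p = 0.0399 and 0.0187), and probe 3 was at 0.63 (adjusted p = 0.0578). The calls on probes 1 and 2 were lost when double morphant 2 or 3 of either stage was left out, and that on probe 1 also without the first double morphant or the second control of 90% epiboly, with adjusted p up to 0.145.

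The MO differences of *tfap2a* at shield were 0.12, 0.10 and -0.16 for its 3 probes, and none passed. At 90% epiboly probe 2 read 10.80, 10.64 and 10.62 in controls and 11.27, 11.27 and 11.29 in double morphants, with no overlap (difference 0.59, standard error 0.24, adjusted p = 0.734 from limma). Probes 1 and 3 were at 0.16 and -0.09 there, so the probes of *tfap2a* did not share a direction.

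*foxi1*, a forkhead factor of the preplacodal ectoderm and the otic placode, read 9.81, 9.60 and 9.97 in shield controls and 10.71, 9.77 and 10.14 in shield double morphants on probe 1. At 90% epiboly it read 10.55, 10.45 and 9.84 in controls and 11.21, 10.98 and 10.62 in double morphants, where the groups did not overlap. The differences of 0.41 and 0.65 (standard error 0.26 for both) did not pass (adjusted p = 0.690 and 0.695 from limma). *gata3*, a zinc-finger factor of non-neural ectoderm, differed by 0.05 at shield (adjusted p = 0.971 from limma) and 0.12 at 90% epiboly (1.00), with 95% intervals from -0.47 to 0.56 and from -0.39 to 0.63. With stage, *foxi1* probe 1 differed by 0.49 in controls and 0.73 in double morphants, and *gata3* by 0.49 and 0.56, and none passed. The dim probe 2 of *foxi1* had MO differences of 0.46 at shield and 0.22 at 90% epiboly. With stage it differed by 0.28 in controls and 0.04 in double morphants, and none of these 4 values passed.

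*foxd3*, a forkhead repressor of the neural crest that is also active in the embryo before the crest forms, was the only one of the 10 genes called lower at 90% epiboly in control MO embryos. Probe 1 read 10.62, 9.97 and 10.37 in shield controls and 9.61, 9.44 and 9.53 in 90% epiboly controls, with no overlap. It fell by 0.80 in control MO embryos (standard error 0.21, adjusted p = 0.0228 from limma) and by 0.71 in double morphants (adjusted p = 0.0382). The first call was lost without the first or the third shield control or the second or the third 90% epiboly control (adjusted p up to 0.0804), and the second without any shield double morphant, the second or the third 90% epiboly double morphant or the second or the third 90% epiboly control (up to 0.155). The dim probe 2 differed with stage by -0.64 in controls and -0.54 in double morphants, with no overlap in either treatment. Neither difference passed in the main fit (adjusted p = 0.087 and 0.142 from limma). The MO differences of *foxd3* were 0.20 and -0.17 at shield and 0.29 and -0.07 at 90% epiboly, and none passed (adjusted p from 0.833 to 1.00).

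Other genes of the ectoderm mostly did not pass between double morphants and controls. No gene was called in either direction at either stage among 20 measured genes of neural crest and border, 16 of the preplacodal ectoderm and placodes, 16 of epidermal ectoderm and 16 of the enveloping layer, against 0.286% of genes called higher and 0.263% lower at shield, and 0.218% and 0.572% at 90% epiboly. The median differences of these lists lay between -0.16 and 0.09 (0.02 and 0.01 over all genes). Among 29 genes of BMP signaling, *szl*, a secreted feedback inhibitor that BMP induces, was the only one called: it read 9.78, 9.74 and 9.72 in 90% epiboly controls and 6.68, 5.91 and 5.70 in double morphants. It fell by 3.65 (adjusted p = 9.65e-07 from limma), and at shield it was at 0.18 (adjusted p = 0.882). The interaction for *szl* passed (-3.83, adjusted p = 3.19e-05).

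Of 17 neural plate genes, *zic2a*, a zinc-finger factor, fell by 1.18 at shield (adjusted p = 0.00802 from limma) and *meis3*, a homeodomain factor of the hindbrain, by 1.44 at 90% epiboly (adjusted p = 0.00285). Probes 2 and 3 of *meis3* fell by 1.57 and 1.28 there (adjusted p = 0.00527 and 0.0403), and probe 4 did not pass (-0.92, adjusted p = 0.266). The call on probe 3 was lost, among others, without any one array of that stage (adjusted p up to 0.184). The interaction passed for *meis3* probe 2 (-1.88, adjusted p = 0.0394 from limma), a call also lost without any one 90% epiboly array (up to 0.139). For probes 1, 3 and 4 it was -1.52, -1.38 and -1.51 and did not pass in the main fit (0.0613, 0.470 and 0.312). The call on *zic2a* was lost, among others, on the shield arrays alone (adjusted p = 0.154 from limma). Of 11 genes of ventral and lateral mesoderm, *cdx4*, a homeodomain factor of the posterior body, fell by 1.66 at 90% epiboly (adjusted p = 0.0265). This call was lost, among others, without any one control or without the first or second double morphant of that stage (adjusted p up to 0.145). On the arrays of that stage alone it was lost too (0.0672 from limma). Probe 2 of *cdx4* fell by 1.40 there (adjusted p = 0.0209), a call lost, among others, without any one array of that stage (up to 0.121).

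Markers of another germ layer moved with the same comparison. The mean log2 level of the 12 paraxial mesoderm genes lay between 9.05 and 9.42 in shield controls and between 7.47 and 7.54 in shield double morphants, and between 9.29 and 9.51 and between 7.28 and 7.42 at 90% epiboly. The part of this in the values of *dlx5a*, *tfap2c*, *msxb* and *msxe* was not tested. For the enveloping layer, an outer cell sheet that covers the embryo, the mean level of 16 genes lay between 12.19 and 12.59 in shield controls and between 12.30 and 12.57 in shield double morphants. At 90% epiboly it lay between 12.67 and 12.75 in controls and, without overlap, between 12.53 and 12.64 in double morphants. The difference between these list means was not tested.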

How the data were processed

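Total RNA of about 200 embryos per sample was labelled with Alexa Fluor 647 and hybridised to Agilent zebrafish arrays (V3) by the authors. The authors deposited log2 intensities of 45220 features, normalized between arrays; how background was corrected, which normalization was applied and with which software is not given in the sources used here. Gene symbols of the annotation are old and were updated through a RefSeq gene table (26842 of 26855 features with a symbol matched). Columns left without a sample numbered 0. No sequences were used and no coordinates are given; neighbouring genes were read from the gene order of the RefSeq table (GRCz12tu), whose assembly is not known to be that of the array.

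Group means of the 12 arrays were estimated with limma 3.58.1 under R 4.3.3 (8 residual and 5.32 prior degrees of freedom), without a filter, and p-values were adjusted over all features. The fit was checked on simulated data for the MO difference at shield. It called 0 of 50 true log2 changes of 0.5, 27 of 50 changes of 1 and 50 of 50 changes of 2. Differences of about 1 or smaller that did not pass are therefore not shown to be absent. The simulated noise behind these counts had no replicate pairing, and the other comparisons were not simulated. The members and lists were chosen with earlier results of these data known. Each member feature is given. Other genes are named if a list gene passed (at most 6 per list) or as the knockdown check. The 3 profiles most like a member called between treatments are named too. *dlx6a*, *msxd* and *msxa* were added after their values were seen. The feature with the highest mean stands for a gene outside the member set. Same-numbered shield samples tended to deviate together (correlations 0.34, 0.35 and 0.30 over all features), so the numbers were taken to pair samples at shield. At 90% epiboly the correlations were 0.20, 0.08 and 0.41, so pairing is less clear there. Unless said to be at shield alone, the block for the MO differences and the interaction nevertheless paired same-numbered samples within both stages. For the stage comparisons the block was the replicate number over all 4 groups. Across stages, same-numbered samples correlated at -0.20, -0.03 and -0.11 in controls and at 0.05, -0.15 and 0.08 in double morphants. Pairing across stages is therefore not shown by the data, and stage calls made only with this block carry that limit. The main fit has no block. Tables and figures used Python 3.11.15, pandas 2.3.3 and matplotlib 3.10.9. Alternatives were each comparison on its own arrays, the block, quantile, median and cyclic loess normalization, array weights, a trended robust variance, removal of dim features, averaging the probes of a gene, the methods' t-test, and leaving out each array. The methods' t-test is the Student's t-test that the study names for quantitative data such as expression levels and cell counts. For its array analysis the study refers to an earlier paper, so this test is not known to be its array test.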

Additional observations from a re-analysis of the deposited data

How the results depend on the processing

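Signals of dim probes and the number of arrays limit what can be seen here, and replicate numbers have no stated meaning. Of 2487 values of the 23 features under the alternatives, 2296 kept their direction and side of the threshold, 76 that were called in neither case changed sign, 60 lost a call, 55 gained one and 0 called values reversed. Many alternatives change only the spread or the adjustment and leave the log2 difference as it was, so direction could not change there. Most of the values that kept their side were called in neither case. The tally is therefore no measure of how firm the calls are. With the replicate block, 4 features were called at shield (1 without it), 1 at 90% epiboly (*tfap2c* probe 3, adjusted p = 0.0257 from limma; 0 without it), 2 for the interaction (0 without it) and 9 for each stage comparison (7 and 8 without it), where the block called 0.736%, 1.03%, 0.294%, 13.7% and 14.2% of all features. With the block at shield alone, chosen after seeing the data, the counts were 2 at shield and 1 for the interaction (0.865% and 0.321% of all). At shield, 0 features were called on its own arrays alone, with trend and robust variance, with array weights, by the methods' t-test after Benjamini-Hochberg adjustment, or with probes averaged per gene, and 4 by that test unadjusted; these settings called 0.186%, 0.451%, 0.363%, 0.031%, 0.512% and 6.01% of all features or genes. At 90% epiboly array weights gave 1 (2.5% of all) and the unadjusted methods' test 4 (7.59%), and for the interaction array weights gave 1 (0.374%). In control MO embryos the stage count was 12 with array weights (20.0% of all), 11 by the unadjusted methods' test (20.3%) and 0 after adjustment (0.283%), so it moved with the count over all features. With probes averaged per gene it was 6 of the 10 genes (12.1% of all) in place of the 4 genes that held the 7 called features. In double morphants it was 0 after adjustment (1.05% of all), and with probes averaged per gene 4 of the 10 genes (12.2% of all) in place of the 5 genes that held the 8 called features. Leaving out 1 array gave 0 to 1 calls at shield, 0 to 0 at 90% epiboly, 0 to 1 for the interaction, 6 to 9 in control MO embryos and 3 to 10 in double morphants, lowest without the third double morphant of shield or of 90% epiboly. The stage calls of *dlx3b*, and in control MO embryos those of *msxb* and *msxe*, were lost only by the adjusted methods' test. The cause of these differences was not tested.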
